A study of Mus musculus with 3 samples.

Results

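Troponin is the calcium switch of the thin filament in striated muscle, and its fast, slow and cardiac isoforms were followed in differentiating mouse myoblasts through the genes that encode them. The members were chosen by gene symbol, as Tnnc1, Tnnc2, Tnni1, Tnni2, Tnni3, Tnnt1, Tnnt2 and Tnnt3, which are 8 of the 23238 genes counted. The libraries were made from the c2c12 line, immortalized mouse skeletal myoblasts that go back to a clone and fuse into myotubes when the serum is reduced. After growth in another medium, on the same substrates by the study's methods and on plates by the labels, the cells were kept for 2 days in myogenic induction medium with horse serum on a tissue culture plate (TCP, with no gel), on methacrylated gelatin at 15% w/v (GelMA), or on 15% GelMA mixed with 1% poly(sodium 4-styrenesulfonate), a sulfonated polymer that mimics heparin (GelMA-PSS). The comparison of GelMA with TCP asks about the gelatin gel, and that of GelMA-PSS with GelMA asks about the sulfonated polymer. With 1 library per substrate and 1 cell line, no difference given here was checked in replicates, and p-values were not computed.

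Each troponin complex holds a calcium-binding subunit (troponin C), an inhibitory subunit that blocks the actomyosin ATPase (troponin I) and a subunit that anchors the complex to tropomyosin (troponin T). When calcium binds troponin C, the inhibitory subunit releases actin and tropomyosin moves, which lets myosin heads attach. Fast, slow and cardiac muscle use different genes for these subunits, embryonic skeletal muscle also transcribes cardiac troponin T, and the troponin T genes are alternatively spliced, which counts per gene do not show.

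The TCP library held 119799095 counts, the GelMA library 87071144 and the GelMA-PSS library 192171443, and a floor of 3 counts corresponds to a CPM (depth-scaled counts with TMM factors) of 0.0246, 0.0330 and 0.0166. All 8 troponin genes passed the limit of a CPM of 1 in at least 1 library, as did 13169 genes in all. The 95% intervals below cover counting error only.

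Together, the troponin genes took 1.96% of the counts on TCP. On GelMA this share was 1.36% and on GelMA-PSS it was 1.39%, and the Wilson intervals of the 3 shares did not overlap. TCP was therefore the library with the most troponin RNA, and the gels lay close to each other. Whether fewer cells had differentiated or each cell held less of these RNAs cannot be told apart in bulk RNA. The levels below are CPM on the TMM scale, and the order of GelMA-PSS and GelMA on that scale depends on the scaling: with total counts alone 3 of the 8 genes, and as TPM without factors 7 of the 8, were lower in GelMA-PSS than in GelMA, and the median log2 ratio of all genes was then -0.10 and -0.36.

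Tnnc1 encodes the troponin C of slow and cardiac muscle. Its CPM was 3122 on TCP, 2131 on GelMA and 2569 on GelMA-PSS. TCP was highest and GelMA lowest, and the counting intervals of the 3 libraries did not overlap. Per kb of transcript, its level was a CPM of 4330.1 on TCP, which was rank 3 of 22847 genes with a known length, and it was at rank 10 on GelMA and rank 14 on GelMA-PSS. Tnnc2, the troponin C of fast muscle, had a CPM of 1718 on TCP, 1096 on GelMA and 1167 on GelMA-PSS. This gene was also highest on TCP, while both gels were near each other. Per kb of transcript, Tnnc2 was below Tnnc1 in each library, with a level of 2454 on TCP, 1566 on GelMA and 1668 on GelMA-PSS.

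The inhibitory subunit was encoded mainly by the slow gene Tnni1, with a CPM of 3381 on TCP, 2276 on GelMA and 2738 on GelMA-PSS. GelMA-PSS lay between TCP, the highest, and GelMA, the lowest. For Tnni2, the inhibitory subunit of fast muscle, the CPM was 970.5 on TCP, 666 on GelMA and 908 on GelMA-PSS. Here GelMA-PSS came close to TCP, and GelMA was again lowest. Tnni3 encodes the inhibitory subunit of the adult heart and is a clinical marker of heart injury. It had 294 counts on TCP, 139 on GelMA and 460 on GelMA-PSS, or a CPM of 2.41 (interval from 2.15 to 2.71), 1.53 (from 1.30 to 1.81) and 2.54 (from 2.32 to 2.78). TCP and GelMA-PSS overlapped within counting error, and GelMA lay below both. Among the 8 genes, Tnni3 was the lowest in every library, at rank 9744 per kb of transcript on TCP.

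Cardiac troponin T, encoded by Tnnt2, had the highest CPM of the 8 genes, with 4863 on TCP, 3181 on GelMA and 3288 on GelMA-PSS. TCP stood above the gels, whose intervals (from 3169 to 3192 on GelMA and from 3279 to 3296 on GelMA-PSS) were close but did not overlap. Tnnt3, the troponin T of fast muscle, had a CPM of 4153 on TCP, 2857 on GelMA and 3117 on GelMA-PSS, which is the same order. Tnnt1, the slow troponin T, was the lowest of this subunit at a CPM of 1040.5 on TCP, 829 on GelMA and 984 on GelMA-PSS. Its libraries were closer together than those of Tnnt2 and Tnnt3. Per kb of transcript, the levels on TCP were 4052 for Tnnt2, 3848 for Tnnt3 and 983 for Tnnt1, so the cardiac and fast genes were similar and the slow gene was lower.

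**Figure D1:**
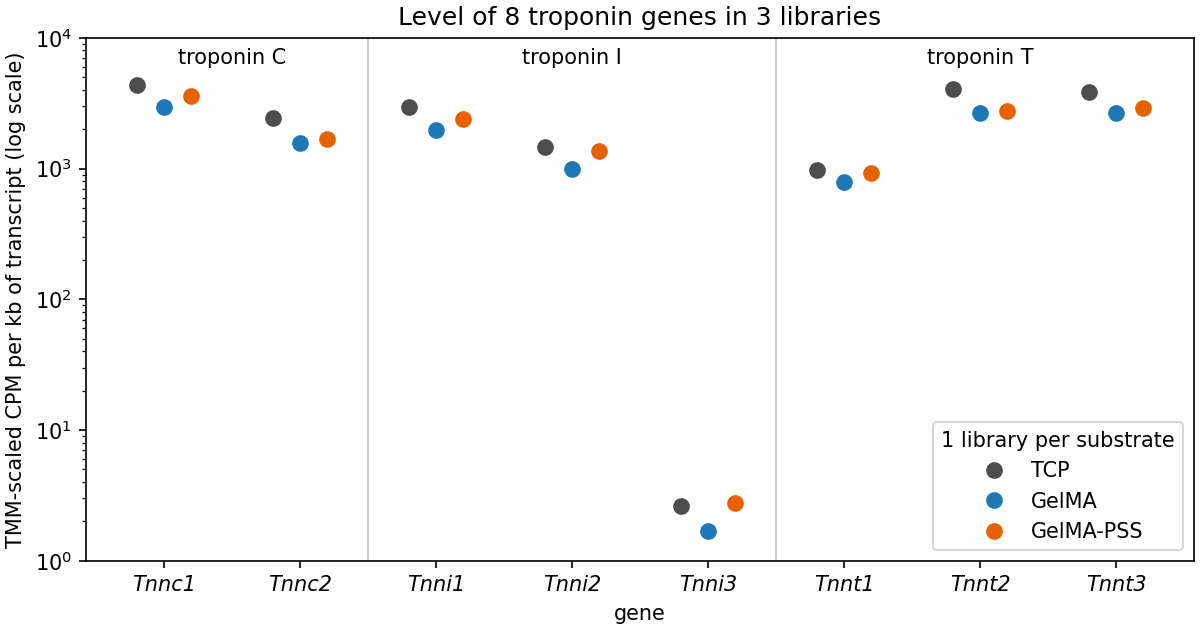
Points show the TMM-scaled CPM per kb of transcript (log axis) of each troponin gene in the TCP, GelMA and GelMA-PSS libraries, 1 library each and no error bars. Tnni3 lies between 1.68 and 2.78 while the other 7 genes lie between 783 and 4330.1, and GelMA has the lowest point of each gene on this scale (as TPM without factors, GelMA-PSS was lower than GelMA for 7 of 8 genes and for 80.8% of all genes).

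Within a library, the share of each gene in its subunit needs no scaling between libraries. The shares are not corrected for the dependence of the ratios on transcript length. From GelMA to GelMA-PSS, the length and GC correction took the log2 change of Tnni2 to Tnni1 from 0.18 to 0.02. That of Tnnt2 to Tnnt3 went from -0.08 to -0.01, and that of Tnnc2 to Tnnc1 stayed at -0.18. Per kb of transcript, Tnnc1 made up 63.8% of troponin C on TCP, 65.4% on GelMA and 68.1% on GelMA-PSS. The slow and cardiac form was thus the larger part, and its share was highest on GelMA-PSS. Of troponin I, Tnni1 made up 66.9%, 66.5% and 63.6% in the same order, and Tnni3 0.0602%, 0.0563% and 0.0744%. Slow troponin I was the main form in all 3 libraries, and the cardiac form was a trace. Of troponin T, the cardiac gene Tnnt2 made up 45.6%, 43.6% and 41.8%, and the slow gene Tnnt1 11.1%, 12.9% and 14.2%. The cardiac share was highest on TCP and the slow share on GelMA-PSS, while the fast share of Tnnt3 moved little, from 43.3% to 43.5% and 44.1%. These shares rest on 1 transcript per gene: with the longest annotated transcript in its place (3330 bases instead of 1200 for Tnnt2), the share of Tnnt2 on TCP was 23.2% and that of Tnnt3 was 61.2%. The cells therefore held a mixed set in each library, with slow forms leading troponin C and troponin I, and cardiac and fast forms leading troponin T on the chosen transcripts.

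**Figure D2:**
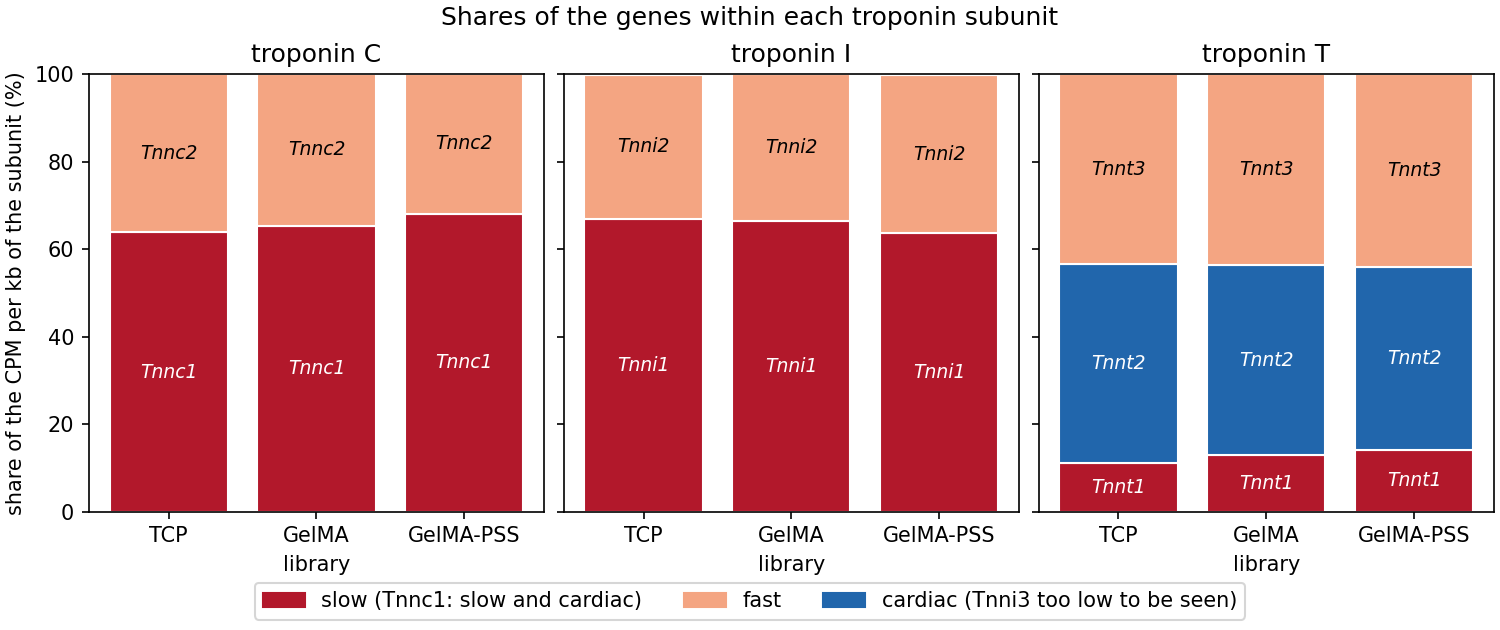
Stacked bars give the share (%) of each gene in the summed CPM per kb of its subunit, for 1 library per substrate and without the length and GC correction. Tnnc1 takes 63.8% of troponin C on TCP and 68.1% on GelMA-PSS, Tnnt2 goes from 45.6% to 41.8% of troponin T, and the share of Tnni3 is at most 0.0744% and cannot be seen.

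Summed per kb of transcript, troponin T had a level of 8883 on TCP, 6080.5 on GelMA and 6558 on GelMA-PSS. Troponin C had 6784, 4522 and 5231, and troponin I had 4396, 2977 and 3743. Set against troponin T, the level of troponin C was 0.764 on TCP, 0.744 on GelMA and 0.798 on GelMA-PSS, and that of troponin I was 0.495, 0.490 and 0.571. On these lengths troponin I RNA was the scarcest subunit in each library, and its ratio to troponin T was highest on GelMA-PSS. The higher value of troponin C on GelMA-PSS than on GelMA was not kept after the length and GC correction, with log2 ratios of -0.30 for Tnnc1 and -0.48 for Tnnc2 beside -0.34, -0.33 and -0.21 for Tnnt2, Tnnt3 and Tnnt1. For Tnni1 and Tnni2 they were -0.13 and -0.11.

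The ratio of a fast to a slow gene was followed as a ratio of counts within a library, with an exact binomial interval. For troponin T, the ratio of Tnnt3 to Tnnt1 was 3.99 on TCP (from 3.97 to 4.02), 3.45 on GelMA (from 3.42 to 3.47) and 3.17 on GelMA-PSS (from 3.15 to 3.18). For troponin C, the ratio of Tnnc2 to Tnnc1 was 0.550 on TCP, 0.514 on GelMA and 0.454 on GelMA-PSS. In both subunits the fast gene was highest relative to the slow gene on TCP and lowest on GelMA-PSS. The ratio of Tnni2 to Tnni1 went the other way, with 0.287 on TCP, 0.293 on GelMA and 0.332 on GelMA-PSS. From GelMA to GelMA-PSS this troponin I ratio changed by a log2 value of 0.18, but with each gene corrected for the length and GC content of its transcript the difference was 0.02. The transcripts of this pair differ in length, with 668 bases for Tnni2 and 1150 for Tnni1. The corresponding changes for Tnnt3 to Tnnt1 and for Tnnc2 to Tnnc1 were -0.12 and -0.18, and with the correction -0.13 and -0.18, since the genes of these pairs are of similar length. Cardiac troponin T was set against its paralogs in the same way. Tnnt2 had 4.67 times the counts of Tnnt1 on TCP, 3.84 times on GelMA and 3.34 times on GelMA-PSS. Against Tnnt3 its ratio was 1.17, 1.11 and 1.05 in the same order. Both ratios were highest on TCP and lowest on GelMA-PSS, with log2 changes from GelMA to GelMA-PSS of -0.20 against Tnnt1 and -0.08 against Tnnt3, or -0.14 and -0.01 after the correction. Across subunits the fast genes thus did not share a direction relative to the slow ones as measured.

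Between GelMA and TCP, all 8 troponin genes were lower on GelMA, under each scaling tried. Their log2 ratios, taken on CPM + 1, ran from -0.65 for Tnnc2 to -0.33 for Tnnt1, with a median of -0.55, whereas the median of all 13169 genes was -0.01 and 51.7% of them were lower on GelMA. Without Tnni3, the gene with few counts, the median of the other 7 was also -0.55. In CPM, the GelMA level was 0.638 of the TCP level for Tnnc2 (exact interval from 0.633 to 0.643), 0.654 for Tnnt2 (from 0.651 to 0.657) and 0.797 for Tnnt1 (from 0.789 to 0.804). For Tnni3 this ratio was 0.634, with a wide interval from 0.514 to 0.778. The slow troponin T was thus the member nearest to its TCP level, and the fast troponin C and cardiac troponin T were among the farthest. By more than 2-fold, 0 of the 8 genes were lower and 0 were higher, against 0.296% and 0.706% of all genes. By more than 1.5-fold, 2 of the 8 were lower, Tnnt2 and Tnnc2, against 2.12% of all genes. Counts past a limit use CPM + 1, where the log2 ratio of Tnni3 was -0.43 (-0.62 with a smaller pseudocount). The 1106 other genes with transcripts of 668 to 1200 bases, which is the range of the troponin genes, had a median log2 ratio of -0.07. After a correction of the ratios for length and GC content, the troponin median was -0.51, and 1 gene (Tnnc2) was lower by more than 1.5-fold, against 2.07% of genes so corrected. Of those 1106 genes of like length, 2.62% had a lower ratio than Tnnc2 and 12.2% a lower ratio than Tnnt1.

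Between GelMA-PSS and GelMA, the direction against 0 depended on the processing. On the TMM scale all 8 troponin genes were higher in GelMA-PSS, but 3 were lower with total counts alone, 7 were lower as TPM without factors, and 7 were lower after the length and GC correction. Of all genes, 46.9% were lower as measured, 58.5% with total counts, 80.8% as TPM and 49.8% corrected. Total counts and TPM move all genes alike, and relative to the median of all genes the troponin median stayed higher, by 0.21 with total counts and 0.15 as TPM, whereas with the correction it was lower by 0.25. The measured log2 ratios ran from 0.05 for Tnnt2 to 0.48 for Tnni3, with a median of 0.26, and the median of all genes was 0.03. Genes with short transcripts were high in GelMA-PSS on this scale, and troponin transcripts are short. The 1106 genes of like length had a median log2 ratio of 0.57, with quartiles of 0.31 and 0.75, and 88.7% of them were higher in GelMA-PSS. All 8 troponin genes lay below that median, with 12.7% of the genes of like length below Tnnt2, 13.9% below Tnnc2 and 22.7% below Tnnc1. Tnni2 and Tnni3 lay within the quartiles, with 36.0% and 40.9% of the genes of like length below them. After the correction the troponin median was -0.25, from -0.48 for Tnnc2 to 0.00 for Tnni3. The 1106 genes of like length had a corrected median of 0.06. Measured or corrected, Tnnt2 and Tnnc2 had lower ratios than Tnni1 and Tnni2. By more than 2-fold, 0 troponin genes were higher and 0 lower, against 1.77% and 2.33% of all genes. By more than 1.5-fold on CPM + 1, 0 were higher as measured, against 11.0% of genes, and 0 were lower after the correction, against 5.52%. In CPM alone Tnni3 was past this limit, at 1.66 times its GelMA level (from 1.37 to 2.02).

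Between GelMA-PSS and TCP, which shares a library with each of the comparisons above, 7 of the 8 troponin genes were lower in GelMA-PSS on the TMM scale, and all 8 were lower with total counts alone, as TPM without factors and after the correction, whereas of all genes 47.2% were lower as measured, 55.2% with total counts, 76.4% as TPM and 50.1% corrected. Relative to the median of all genes 7 of the 8 were lower with total counts and as TPM, and 8 with the correction. The measured log2 ratios ran from -0.56 for Tnnt2 and -0.56 for Tnnc2 to 0.05 for Tnni3, with a median of -0.29, and the median of all genes was 0.04. For Tnni3 the GelMA-PSS level was 1.05 times the TCP level, with an interval from 0.907 to 1.22, so that a difference was not detectable at this depth. Genes of like transcript length had a median of 0.49. Of these genes, 4.52% had a lower ratio than Tnnt2, 8.14% a lower ratio than Tnni1 and 13.9% a lower ratio than Tnnt1. After the length and GC correction the troponin median was -0.70. The corrected ratios were -1.06 for Tnnc2, -0.87 for Tnnt2, -0.80 for Tnnt3 and -0.78 for Tnnc1, and those of Tnnt1 and Tnni3 were -0.45 and -0.35. By more than 2-fold, 0 of the 8 were lower and 0 higher as measured, against 3.13% and 3.72% of all genes, and 1 (Tnnc2) was lower after the correction, against 2.36%. By more than 1.5-fold, 0 were lower as measured, against 11.5% of genes. After the correction 6 of the 8 were lower by more than 1.5-fold, against 9.27% of genes, with Tnni2 at a log2 ratio of -0.59 just past the limit. The members outside these 6 were Tnnt1 and Tnni3. Set against both TCP and GelMA, 0 troponin genes were higher and 0 lower by more than 2-fold in GelMA-PSS, where 1.37% and 1.16% of all genes were.

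**Figure D3:**
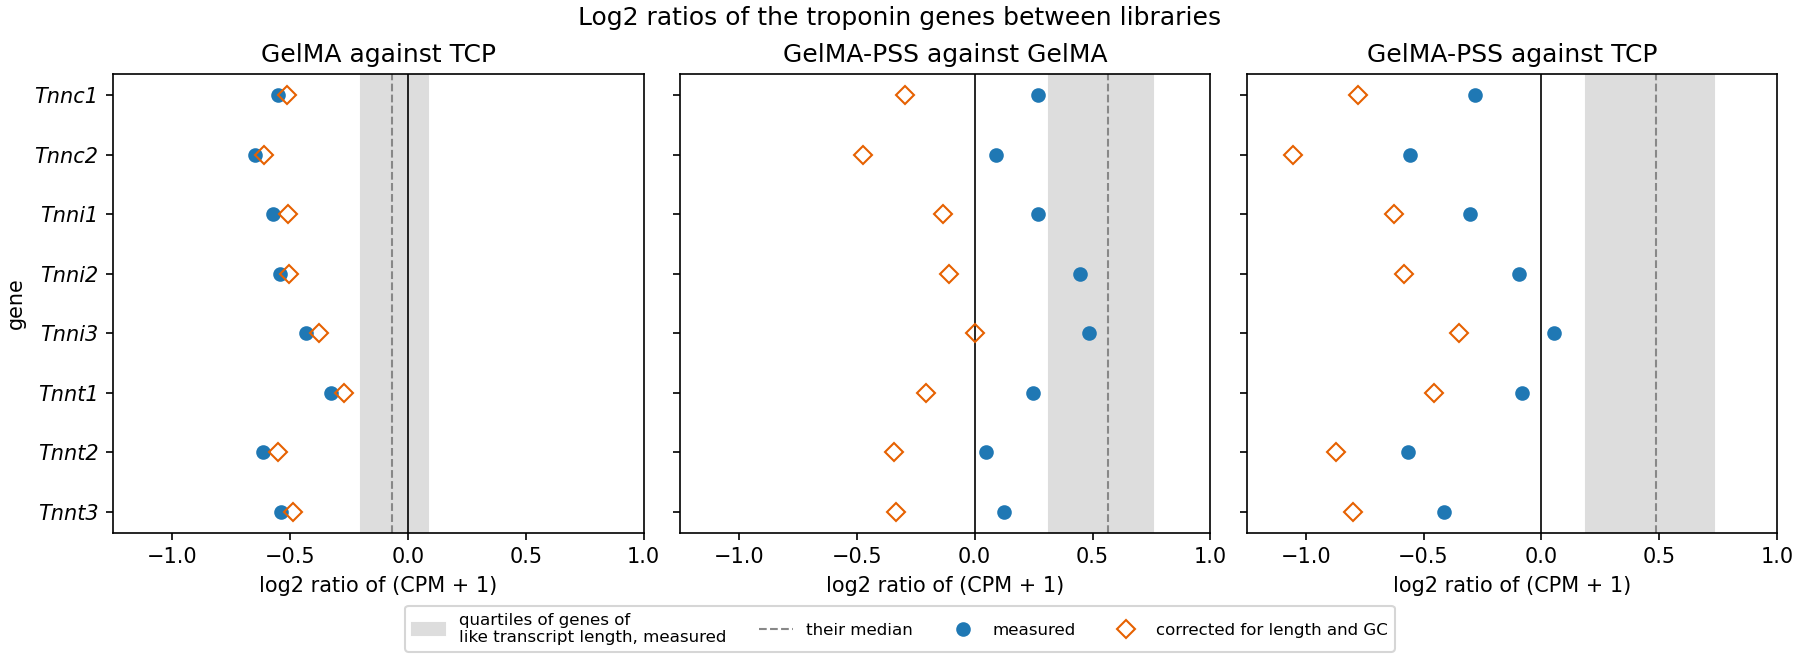
Each panel plots log2 ratios of CPM + 1 (horizontal axis) for the 8 troponin genes in a comparison of 2 libraries, as measured (filled circles) and after the length and GC correction (open diamonds), with a grey band from the lower to the upper quartile of the 1106 genes of like transcript length, as measured, and a dashed line at their median. All 8 genes lie left of the band in the comparisons with TCP, while for GelMA-PSS against GelMA the measured values are above 0 (total counts alone put 3 of them and 58.5% of all genes, and TPM without factors 7 and 80.8%, below 0) and the corrected ones are below 0 apart from Tnni3 at 0.00.

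The order TCP above GelMA-PSS above GelMA, on the TMM scale, held for 7 of the 8 troponin genes and for 7.81% of all genes passing the CPM limit. Tnni3 was the exception, with GelMA-PSS at the top. The median profile of the troponin genes over the 3 libraries was nearest, by Euclidean distance on centred log2 values, to those of Gyg (0.01), Fn3k (0.02), Upf3b (0.04), Dexi (0.04) and Ankrd2 (0.05), out of 9659 candidates that reached a CPM of 10 in any library. For comparison, the distance of the members themselves to that profile ran from 0.02 for Tnnc1 and Tnni1 to 0.25 for Tnni3. Gyg encodes glycogenin, which primes glycogen synthesis, and Ankrd2 encodes an ankyrin repeat protein of stretched and slow muscle. With 3 points per profile, such nearness is a description only.

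Troponin genes lie in pairs of an inhibitory and a tropomyosin-binding subunit in the mouse genome (positions from GENCODE on GRCm38). Tnni1 (chr1:135779434-135810989) and Tnnt2 (chr1:135836354-135852260) share the + strand of chromosome 1. Tnni2 (chr7:142441808-142444410) and Tnnt3 (chr7:142498836-142516009) lie on the + strand of chromosome 7. Tnni3 (chr7:4518305-4524229) and Tnnt1 (chr7:4504570-4516382) lie on the - strand of the same chromosome with 1922 bases between them. Tnnc1 (chr14:31208312-31211729, + strand) and Tnnc2 (chr2:164777161-164779967, - strand) have no troponin neighbour. In the closest pair, the level of Tnni3 per kb of transcript was 0.00269 of that of Tnnt1 on TCP. Between Tnni2 and Tnnt3 the ratio of counts was 0.234 on TCP and 0.233 on GelMA, a change whose interval included 0 on the log2 scale (from -0.02 to 0.01). On GelMA-PSS that ratio was 0.291, with a log2 change against GelMA of 0.32, or 0.22 after the length and GC correction. Tnni1 to Tnnt2 went from 0.695 on TCP to 0.715 on GelMA and 0.833 on GelMA-PSS, and its change from GelMA to GelMA-PSS was 0.22 on the log2 scale and 0.21 after the correction. In the pairs of Tnni2 with Tnnt3 and of Tnni1 with Tnnt2, the inhibitory subunit thus gained on its neighbouring troponin T in the GelMA-PSS library. Tnni3 to Tnnt1 changed by 0.48 from GelMA to GelMA-PSS (from 0.21 to 0.76), or 0.21 after the correction. From TCP to GelMA-PSS its change was 0.15, with an interval that included 0 (from -0.06 to 0.36).

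Other expressed genes beside the troponin genes had log2 ratios for GelMA against TCP of -0.12 for Phlda3, 0.47 for Pkp1, -0.24 for Syt8, 0.08 for Lsp1, -0.13 for Mrpl23, -0.10 for Ppp1r12c, 0.11 for Sema3g and 0.01 for Snx21. None of these 8 was as low as the troponin gene beside it. Some troponin genes overlap other genes, and the strand setting of the counting is not given in the sources used here. The overlaps are of whole gene intervals with introns, and whether exons are shared was not examined. The whole of Tnnc1 lies within the interval of Nisch on the opposite strand, with a CPM for Nisch of 533 on TCP, 616 on GelMA and 432 on GelMA-PSS. Tnnc2 shares 1662 bases with Ube2c, a ubiquitin-conjugating enzyme of mitosis on the opposite strand, whose CPM was 17.9, 24.4 and 47.1. The CPM of Tnnc2 itself was 1718, 1096 and 1167. Tnnt3, with a CPM of 4153, 2857 and 3117, shares 7936 bases with Prr33 on the opposite strand, at a CPM of 180.2, 131 and 146. The log2 ratio of Prr33 for GelMA against TCP was -0.45, where that of Tnnt3 was -0.54. Tnni3 shares 1297 bases with Dnaaf3 on the same strand, at a CPM of 1.18, 1.22 and 1.74, which is of the order of Tnni3 itself. These shared bases lie before the Tnni3 start that was used for the promoter window below. Whether reads of Dnaaf3 were counted for Tnni3 was not tested.

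In the chosen transcripts, the longest run of identical bases between members of the same subunit ranged from 14 bases (Tnni2 and Tnni3) to 22 bases (Tnni1 and Tnni2), and 0 stretches as long as a read were shared. That longest run, in the coding sequence of both, is shown because it marks the limit of exact identity between the slow and fast troponin I transcripts, where it covers bases 589 to 610 of Tnni1 and 403 to 424 of Tnni2.
Tnni1 and Tnni2: CTGGGCTCTAAGCACAAGGTGT

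The promoters are shown because these genes moved together between TCP and GelMA. RefSeq promoter entries (GRCm38.p6) matched 6 of the 8 genes with 8 start sites, and the 250 bases before the start were searched on both strands for CANNTG (the E-box, bound by myogenic basic helix-loop-helix factors), for CATTCC (the core of the M-CAT element), for TATAAA, and for the MEF2 and CArG motifs by their usual patterns. For both Tnni1 windows and the Tnnt2 window at chr1:135836739-135836988, the first transcribed bases were not part of the transcript chosen for length. An E-box was present in all 8 troponin promoters, but also in 66.2% of 32851 promoters of that length. CAGCTG, which is itself a CANNTG, was found at 2 of the 6 genes (Tnni1 and Tnnt2). Per promoter this was 3 of 8, where the windows of Tnni1 overlap, against 13.0% of all promoters. CATTCC was found at 2 genes (Tnnt2 and Tnnc1), in 2 of the 8 promoters, against 12.6% of all promoters. TATAAA was found at 1 gene (Tnnt1), in 1 of the 8 promoters, against 12.4%. The MEF2 and CArG patterns, in 1.69% and 1.47% of all promoters, were not among the letters of the troponin windows. The 4 windows below belong to the most abundant troponin C and troponin T genes per kb on TCP and to the neighbours Tnnt1 and Tnni3, whose levels differ most. They are chr14:31208062-31208311 (+ strand) for Tnnc1, chr1:135836084-135836333 (+ strand) for Tnnt2, chr7:4515976-4516225 (- strand) for Tnnt1 and chr7:4522529-4522778 (- strand) for Tnni3, each read 5′ to 3′ with the matches to the motifs in capitals, CATTCC also as its reverse complement.
Tnnc1: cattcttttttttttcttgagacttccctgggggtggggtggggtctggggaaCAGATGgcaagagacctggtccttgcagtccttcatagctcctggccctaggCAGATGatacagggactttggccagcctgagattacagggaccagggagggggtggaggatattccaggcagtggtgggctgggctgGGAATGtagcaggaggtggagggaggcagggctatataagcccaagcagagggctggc
Tnnt2: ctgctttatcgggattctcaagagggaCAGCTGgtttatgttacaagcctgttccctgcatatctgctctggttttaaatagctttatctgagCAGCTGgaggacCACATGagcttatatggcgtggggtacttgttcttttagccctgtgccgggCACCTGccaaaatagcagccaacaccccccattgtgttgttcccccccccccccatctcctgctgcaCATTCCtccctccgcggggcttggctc
Tnnt1: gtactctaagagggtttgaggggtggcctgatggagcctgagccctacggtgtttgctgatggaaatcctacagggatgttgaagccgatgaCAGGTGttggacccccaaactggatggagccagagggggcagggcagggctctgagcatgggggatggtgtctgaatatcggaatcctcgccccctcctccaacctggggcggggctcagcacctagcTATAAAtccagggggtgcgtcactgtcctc
Tnni3: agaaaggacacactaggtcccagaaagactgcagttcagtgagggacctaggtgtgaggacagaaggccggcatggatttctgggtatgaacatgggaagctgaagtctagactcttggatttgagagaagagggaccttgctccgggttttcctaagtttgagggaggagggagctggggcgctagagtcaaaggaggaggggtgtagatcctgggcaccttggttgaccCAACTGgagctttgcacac

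In the Tnnt2 window the CAGCTG matches begin 223 and 157 bases before the start, and the CATTCC match begins 27 bases before it. In Tnnc1 the CATTCC match lies on the other strand and begins 58 bases before the start, and in Tnnt1 TATAAA begins 30 bases before it. The window of Tnni3, the gene with the lowest level, holds 1 match, an E-box that begins 19 bases before the start. A match describes the letters of the window and not the binding of a factor.

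The troponin genes were set beside lists of genes that act with them, with overlapping members between lists, as medians of the log2 ratio for GelMA against TCP, GelMA-PSS against GelMA and GelMA-PSS against TCP in that order, beside -0.55, 0.26 and -0.29 for the troponin genes. For other genes of the thin filament, which troponin regulates, the medians were -0.45, -0.08 and -0.55, and 16 of 17 genes were lower on GelMA than on TCP, where 51.7% of all genes were. Actin genes Acta1 and Actc1 and tropomyosin Tpm2 were the most abundant of them, with ratios for GelMA-PSS against TCP of -0.29, -0.53 and -0.55 as measured and -0.51, -0.80 and -0.63 after the correction. The long genes Neb and Xirp1 had -2.34 and -1.30 as measured, and -1.37 and -0.94 corrected. Genes of the thick filament had medians of -0.54, -0.77 and -1.43, with 21 of 21 lower on GelMA than on TCP and 14 lower by more than 2-fold on GelMA-PSS than on TCP, against 3.13% of all genes, or 11 of 21 after the correction, against 2.36%. After the length and GC correction the medians for GelMA-PSS against TCP were -0.63 for the thin filament and -1.11 for the thick filament, beside -0.70 for the troponin genes. For GelMA-PSS against GelMA the corrected medians were -0.31 and -0.51, beside -0.25 for the troponin genes. The embryonic myosin Myh3 and the fast myosin Myh4 had ratios of -1.75 and -2.62 for GelMA-PSS against TCP, and Mybph and Ttn -0.76 and -2.55. Corrected, these 4 ratios were -1.41, -2.30, -0.80 and -0.75. The myosin light chains with transcripts as short as those of troponin differed among themselves: the ratios of Mylpf, Myl1, Myl4, Myl6b and Myl2 for GelMA-PSS against GelMA were 0.56, 0.55, -0.01, -0.11 and -0.55, or -0.01, 0.03, -0.48, -0.51 and -1.12 after the correction.

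Slow fibre genes other than troponins had medians of -0.64, -0.32 and -0.69, and fast fibre genes -0.47, -0.08 and -0.49, over 12 and 15 genes. All of these genes but 1, in the fast list, were lower on GelMA-PSS than on TCP, and all were after the correction, against 47.2% and 50.1% of all genes. The corrected medians for GelMA-PSS against TCP were -0.97 for slow and -0.65 for fast genes. For GelMA-PSS against GelMA they were -0.44 and -0.32. In that comparison 12 of 12 slow and 14 of 15 fast genes were lower after the correction, against 49.8% of all genes. As measured, 8 of 12 and 8 of 15 were lower, against 46.9% of all genes. Among slow fibre genes, the ratios for GelMA-PSS against TCP were -0.73 for Casq2, -1.09 for Atp2a2, -0.07 for Tpm3, -2.02 for Myh7b and -2.04 for Mybpc1, or -0.86, -0.93, -0.20, -1.61 and -1.99 after the correction. Among fast fibre genes they were 0.05 for Mylpf, -0.09 for Myl1, -0.26 for Eno3, -2.05 for Myh2 and -2.62 for Myh4, or -0.46, -0.50, -0.48, -1.71 and -2.30 corrected. Genes of calcium handling, which deliver the calcium that troponin C binds, had medians of -0.38, -0.45 and -0.83 over 18 genes, with -0.88 for the calcium pump Atp2a1, -2.04 for the release channel Ryr1 and -1.46 for Ryr3 in GelMA-PSS against TCP, or -0.78, -1.16 and -0.66 corrected.

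Splicing factors listed for troponin T splicing had medians of -0.05, -0.51 and -0.61, or -0.13, -0.34 and -0.45 corrected. Whether each of them acts on troponin T exons in these cells was not tested. All 12 were lower on GelMA-PSS than on GelMA, or 10 of 12 after the correction, against 46.9% and 49.8% of all genes. Among them, Rbfox2, Qk and Celf2 had ratios of -0.87, -0.44 and -0.48 for GelMA-PSS against GelMA, and -0.36, 0.10 and 0.09 after the correction, and Rbfox1 had -1.20 in GelMA-PSS against TCP, or -1.46 corrected. Regulators of muscle genes had medians of 0.02, -0.31 and -0.20 over 26 genes, or 0.06, -0.13 and -0.11 corrected. Myog, which activates troponin genes at the onset of differentiation, had a CPM of 1099.9 on TCP, 895 on GelMA and 1037 on GelMA-PSS, the order of 7 of the 8 troponin genes on the TMM scale, and its corrected ratio for GelMA-PSS against GelMA was -0.08. Mef2c and Mef2a had ratios for GelMA-PSS against GelMA of -1.15 and -0.69, and Id3, an inhibitor of myogenic factors, had 1.23, or -0.85, -0.47 and 0.87 corrected. Genes of cycling cells went the other way from the troponin genes in the comparison of GelMA with TCP, with a median of 0.47 and 14 of 15 genes higher, whereas 51.7% of all genes were lower. Their other medians were 0.20 and 0.66. In GelMA-PSS against TCP the ratios were 1.47 for Cdk1, 1.08 for Ccnb2, 0.52 for Top2a, 0.63 for Pcna and 0.01 for Rrm2, or 1.60, 0.80, 0.66, 0.29 and -0.17 corrected. The part of cycling cells in the troponin result was not tested.

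Markers of cell types were read beside the troponin genes. All 8 skeletal myogenic markers passed the CPM limit, with a summed CPM of 23895 on TCP, 17981 on GelMA and 14881 on GelMA-PSS, most of it Myh3 (10182, 6355 and 3037), Acta1 and Des. Without Myh3 the sums were 13714, 11625 and 11844. Over all 8 markers, Myh3 included, the median log2 ratios were -0.25, 0.11 and -0.19 in the order of comparisons above. After the correction they were -0.22, -0.02 and -0.28. Heart markers bear on the cardiac genes Tnnt2 and Tnni3: 4 of 9 passed the limit, Myl7 had 0 counts in all 3 libraries, and Nkx2-5, Nppa, Hcn4 and Tbx20 were under a CPM of 1. The summed CPM of the heart list was 477, 163 and 68.2, of which Myh6 made up 457, 144 and 48.4, and 20.0, 19.5 and 19.8 without Myh6. Gata4 had 16.0, 15.6 and 13.7, Tbx5 1.29, 1.55 and 0.635, and Nppb 1.56, 1.44 and 4.89, with a log2 ratio of 1.27 for GelMA-PSS against GelMA, or 0.64 corrected. Myh6 has a close paralog, Myh7, and the counting could have divided reads between them. For smooth muscle, 4 of 6 markers passed, with a summed CPM of 3588, 2822 and 3076, led by Acta2 with 3248, 2556 and 2803, while Myh11 and Myocd were under a CPM of 1. For fibroblasts 4 of 5 passed, with sums of 131, 186 and 116, led by Col1a1 at 119.7, 168 and 99.0, and Thy1 was at or under the floor. Their medians were 0.49, -0.26 and 0.41, or 0.43, -0.08 and 0.47 corrected, beside -0.01, 0.03 and 0.04 for all genes as measured, and 4 of 4 were higher on GelMA than on TCP. Immune markers summed to 1.58, 1.72 and 1.47, nearly all from Cd68, with 1 of 4 past the limit and Adgre1 at or under the floor. Endothelial markers (0 of 3 past the limit) summed to 0.115, 0.264 and 0.282, led by Cdh5. Fat markers (1 of 4) summed to 8.57, 6.75 and 9.61, led by Pparg, and nerve markers (2 of 3) to 27.1, 34.9 and 31.4, led by Map2. Other markers taken by the naming rule were Ckm with a CPM of 542 on TCP, 430.3 on GelMA and 379.7 on GelMA-PSS, Smtn with 223, 200.1 and 197, Tagln with 116, 65.5 and 73.5, and Pdgfra with 6.79, 10.0 and 7.44. The part of these markers in the troponin result was not tested.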

How the data were processed

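RNA-seq counts per gene symbol were deposited by the authors for 3 libraries of c2c12 cells, without normalization. The submitters' processing notes name TopHat and edgeR and the builds mm10 and hg19, with no role given; the counting tool, its strand setting and the annotation are not given in the sources used here. The study's methods name a TruSeq kit and strand-specific paired-end reads, whereas the labels name a SMARTER kit. Substrates were taken from the labels. The concentration of the plain GelMA gel, which its label does not give, was taken from the study's methods.

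Lines that share a symbol (35 symbols in 23282 lines) were summed, which touched 0 troponin genes. CPM was scaled with TMM factors (TCP 1.02, GelMA 1.04, GelMA-PSS 0.943; edgeR 4.0.16, R 4.3.3), and ratios were taken on log2(CPM + 1) for genes that reached a CPM of 1 in any library. A difference past 2-fold, or 1.5-fold, was counted. Lengths and GC shares of transcripts were read from GENCODE vM21 with 1 transcript per gene (longest coding sequence, basic set preferred), and ratios were corrected by 2 successive lowess fits with a span of 0.3 (statsmodels 0.14.6, Python 3.11.15, pandas 2.3.3, numpy 2.4.6), on the 13052 of 13169 genes with a length. This step was tested on simulated data, but the outcome is not given here. Wilson and exact Clopper-Pearson intervals (scipy 1.17.1) at 95% cover counting error only and would be too narrow where the deposited counts hold each read of a pair. Median-of-ratios factors came from DESeq2 1.42.0, and figures from matplotlib 3.10.9. Because each substrate has 1 library, no p-value was computed.

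The genes named are all 8 members, from each list the 3 with the highest mean CPM and the 2 with the largest median change in GelMA-PSS among those that reached a CPM of 10, the expressed genes next to each troponin gene, and the 5 nearest profiles. Other marker genes at low levels, the light chains Myl4, Myl6b and Myl2 and the genes that complete a marker list were named after their values were seen. Members and lists (thin filament, thick filament, slow fibre, fast fibre, calcium handling, troponin T splicing, regulators of muscle genes, cycling and cell type markers) were chosen with earlier results of these data known. Other experiments of the study were not analysed here.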

Additional observations from a re-analysis of the deposited data

How the results depend on the processing

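Several values of the troponin genes moved with the processing. For GelMA against TCP all 8 genes were lower under each of the 8 settings tried, and the median log2 ratio of -0.55 became -0.51 with total counts alone, -0.50 as TPM without factors, -0.56 with the smaller pseudocount, -0.51 with the length and GC correction and -0.48 relative to genes of like transcript length, an alternative chosen after seeing the data. At 1.5-fold 2 genes were lower, against 0 at 2-fold. For GelMA-PSS against GelMA the median of 0.26 became 0.11 with total counts, 0.23 with a pseudocount of 5, and reversed to -0.21 as TPM, -0.25 with the correction and -0.31 relative to genes of like length. TPM moved the median of all genes to -0.36 as well, and relative to it the troponin median was 0.15, whereas with the correction the median of all genes was 0.00. For GelMA-PSS against TCP the median of -0.29 became -0.40 with total counts, -0.71 as TPM (median of all genes -0.31), -0.70 with the correction and -0.78 relative to genes of like length, and the genes lower by more than 2-fold went from 0 to 1 with the correction and to 2 relative to genes of like length, where 14.4% of all genes were lower by more than 2-fold. The split of all genes past 2-fold moved as well: for GelMA-PSS against GelMA 2.33% lower and 1.77% higher became 3.84% and 0.911% with total counts and 7.91% and 0.291% as TPM, and for GelMA-PSS against TCP 3.13% and 3.72% became 4.37% and 2.57%, and 8.03% and 1.08%. The cause of the dependence on length was not tested. Of 192 single-gene ratios under these settings, 29 had the other sign, of which 21 came with total counts, TPM or the median of genes of like length, which move all genes alike, and 8 with the correction; 94 moved beyond counting error, and of 24 shares within a subunit 18 moved with the longest transcript and 21 as counts without length. Without the filter on low genes, which adds genes that seldom pass, the share of all genes past 2-fold in either direction was 0.568% for GelMA against TCP, 2.32% for GelMA-PSS against GelMA and 3.88% for GelMA-PSS against TCP, where the filter gave 1.00%, 4.10% and 6.85%. No paired analysis was possible because each substrate has 1 library. Depth limits Tnni3 alone among the members.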
